A study of Caenorhabditis elegans with 12 samples.

Results

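Terminal selectors are transcription factors that switch on, and keep on, the genes that give a mature neuron its particular identity, such as its transmitter enzymes, receptors and channels. In Caenorhabditis elegans most of them are homeodomain proteins, many act in pairs in a given neuron, and each is expressed in few of the animal's neurons. They were described here as 10 genes of 21982 in the deposited table, all found by gene name: the POU gene unc-86, the LIM homeodomain genes mec-3, ttx-3, lim-4, lim-6 and lin-11, the paired-type homeodomain genes unc-30 and unc-42, the COE gene unc-3 and the zinc finger gene che-1.

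The libraries came from whole worms of strain KH2235, which carries a splicing reporter made from a ret-1 minigene and was sorted on day 6 by its fluorescence. The Green group was mostly GFP and the Red group mostly mCherry, and both carry the same reporter, so neither is an animal without it. There were 6 libraries per group, in 6 batches of 1 Green and 1 Red library. No label says that the worms of a group were grown apart, so the spread behind each p-value may be technical. The promoter of the reporter and the limits of the sort are not given in the sources used.

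Levels are normalized counts, the authors' read counts divided by 1 size factor per library. Recovered totals were 30185155 to 87141961 reads per library. The first principal component, with 45.3% of the variance, separated the groups, and the second, with 19.1%, set the Red library of batch 6 apart (88.0, against -21.8 to 5.6 in the others). The 26 listed pan-neuronal genes, many of which serve synaptic release, had a mean log2 level of 9.45 to 9.96 across the libraries. All of them passed the filter below, which is set on the mean over the 12 libraries.

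The tests compared Green with Red by limma on log2(normalized count + 1), over the 14618 genes averaging at least 10 normalized counts, and a gene was called at an adjusted p under 0.05. Of the 10 factors 7 entered the fit, each with a mean over 10 in both groups, and ttx-3, che-1 and lim-4 fell under the filter. Of the 7, unc-86, unc-3, unc-30, unc-42 and lim-6 were called lower in Green, none was called higher by limma, edgeR or DESeq2, and mec-3 and lin-11 were not called. Over all tested genes 20.1% were called lower in Green and 19% higher. The median log2 difference of all tested genes was 0.04. In whole-worm RNA, fewer cells of a type and less RNA per cell cannot be told apart.

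Because neurons are a small part of the worm, the same fit was also run relative to the mean of the 26 pan-neuronal genes. That mean was lower in Green by 0.27 on the log2 scale, with 10 of the 26 called lower and 2 higher. The 26 did not move together, so this scale is not a measure of neuron content. On that scale unc-86, unc-3 and lim-6 were called lower, where 12.4% of tested genes were. None of the factors was called higher by limma, where 44.6% of tested genes were, and the median difference of all tested genes on that scale was 0.31. In unc-86 and unc-3 every Green library lay below every Red library, which was so in 9.71% of tested genes. Green was below Red in all 6 batches in unc-86, unc-3, lim-6, lin-11 and ttx-3, the last under the filter. That was so in 2949 of the 14618 tested genes.

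**Figure D1:**
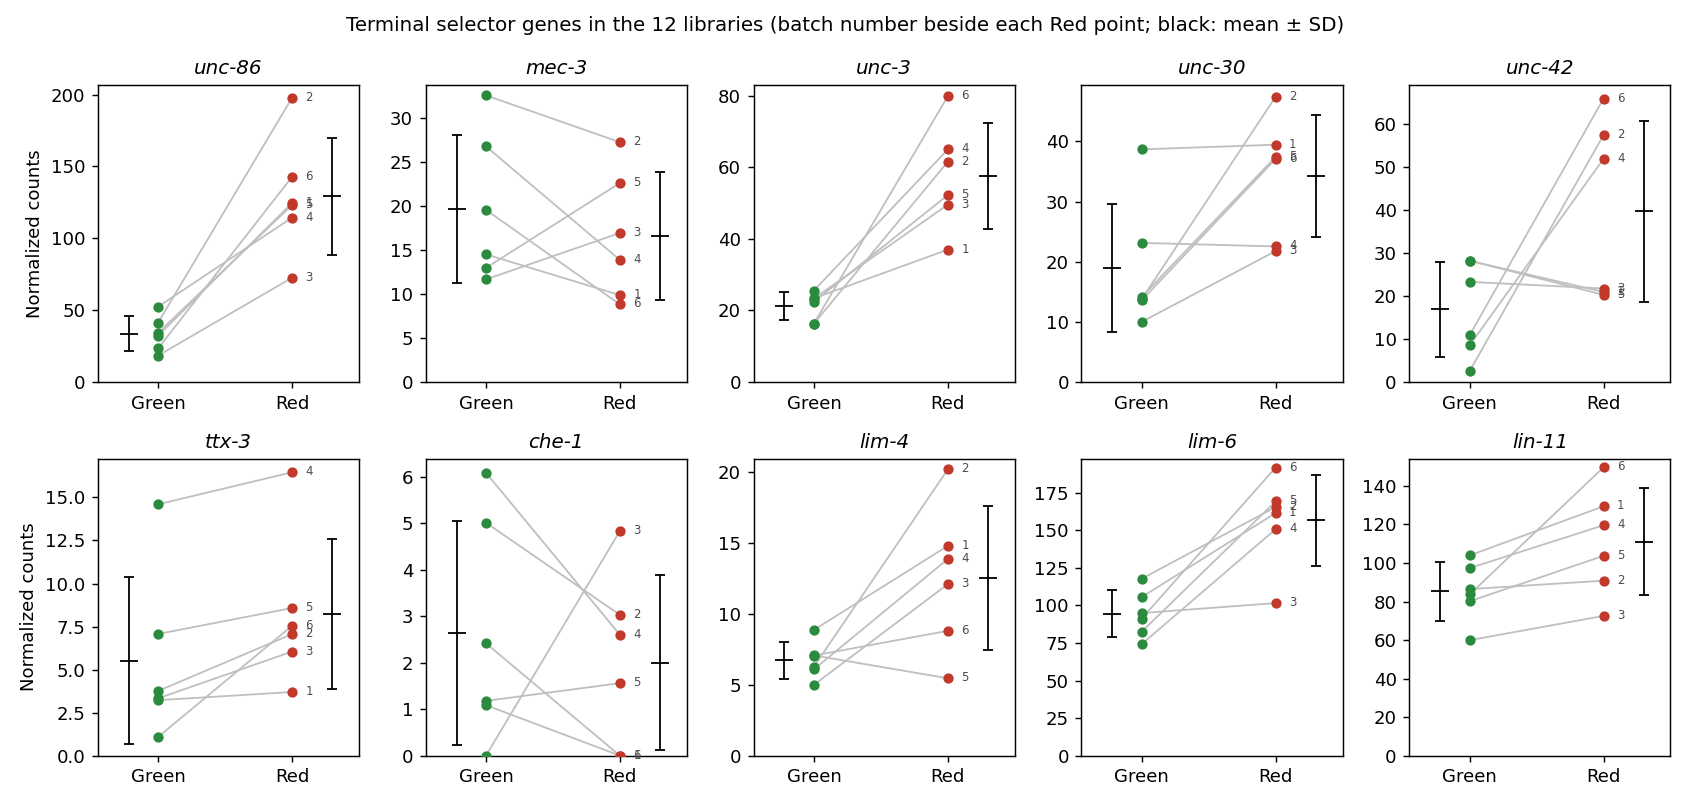
Each panel plots 1 terminal selector gene, with normalized counts on a linear axis from 0. Green and red points are the 6 libraries of each group, grey lines join the libraries of a batch (its number beside the Red point), and black marks give the mean ± SD; unc-86 and unc-3 do not overlap between groups, and the lines of mec-3 cross.

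The POU factor unc-86 and the LIM factor mec-3 act together in the touch receptor neurons: UNC-86 starts mec-3 transcription, and the 2 proteins then bind target promoters as a pair. UNC-86 also works with other partners in serotonergic and further sensory neurons. The gene unc-86 (chromosome III, 8212740 to 8216336, minus strand, build WBcel235) ranged in Green from 18.3 to 52.3 normalized counts with a median of 33.2. In Red it ranged from 72.5 to 198 with a median of 124. The groups did not overlap, and the highest Green library, of batch 4, lay below the lowest Red library, of batch 3.

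The log2 difference of unc-86 was -1.93 ± 0.27 (SE; 95% interval -2.50 to -1.36, n = 6 and 6, limma adjusted p = 0.00014). Its mean was 33.6 ± 12.3 normalized counts over the Green libraries and 129.2 ± 40.9 over the Red (SD, n = 6 each), 3.84-fold higher in Red. It was lower in Green within each of the 6 batches, by -2.56 to -1.11. Only 1.37% of tested genes had a lower fold than unc-86. Relative to the pan-neuronal genes its difference was -1.66 (limma adjusted p = 0.00017). It rested on 199 reads in Green and 874 in Red.

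Its partner mec-3 (chromosome IV, 10458816 to 10461867, minus strand) ranged from 11.7 to 32.6 normalized counts in Green, median 17.03, and from 8.80 to 27.2 in Red, median 15.4. The groups overlapped over most of their range, and the highest library of each group was that of batch 2. Its log2 difference was 0.25 ± 0.33 (SE; 95% interval -0.46 to 0.96, limma adjusted p = 0.58), so a fall as large as that of unc-86 lies outside its interval. Within batches mec-3 was higher in Green in 4 and lower in 2, from -0.76 to 1.07.

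The 2 partners were set against each other within libraries after their values had been seen, so this is a description. The log2 level of mec-3 minus that of unc-86 ran from -1.33 to -0.24 in the Green libraries and from -3.87 to -2.04 in the Red. The groups did not overlap, and the value was higher in Green in all 6 batches. These are differences of levels not corrected for gene length.

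The genes of the touch receptor neurons that UNC-86 and MEC-3 are known to turn on were mixed. Of 9 listed, 8 entered the fit, 2 were called lower in Green and none higher, with a median log2 difference of -0.16. The channel subunit gene mec-4 averaged 20.95 ± 3.70 normalized counts across the Green libraries and 46.6 ± 3.23 across the Red (SD, n = 6 each), a log2 difference of -1.13, and its groups did not overlap. The other channel subunit gene, mec-10, fell by 0.77. The stomatin-like mec-2 was at -0.41 (limma adjusted p = 0.067) and mec-18 at -0.22, neither called. With the batch as a block mec-2 was called lower (limma adjusted p = 0.031). The remaining genes in the fit, mec-17, mec-12, mec-7 and mec-9, were at 0.10, 0.06, -0.07 and -0.10, none called. The median changed sign with the scaling, to 0.11 relative to the pan-neuronal genes and 0.14 after quantile normalization, and mec-4 alone was then called.

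The serotonergic list, part of which depends on UNC-86 in the neurons that make serotonin, went both ways. Of 5 genes 2 were called higher in Green and 1 lower. The amino acid decarboxylase gene bas-1 rose by 1.19 on the log2 scale, from 121 ± 37.3 normalized counts in Red to 268 ± 40.7 in Green (SD, n = 6 each), and cat-4, of the cofactor pathway, rose by 0.55. The serotonin transporter gene mod-5 fell by 0.69. The hydroxylase gene tph-1, the most specific of the list, stood at -0.63 and was not called (limma adjusted p = 0.12). Since tph-1 averaged 9.70 normalized counts in Green and 15.1 in Red, it passed the filter only through Red. Both bas-1 and cat-4 are also active outside serotonergic neurons.

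Motor neuron identity depends on unc-3 and unc-30. UNC-3, the worm's COE (EBF) factor, specifies cholinergic motor neurons of the ventral cord, and UNC-30, a Pitx-type homeodomain protein, specifies the GABA motor neurons of the D class. The gene unc-3 (chromosome X, 14773538 to 14783568, plus strand) ranged from 16.3 to 25.6 normalized counts in Green, median 22.9, and from 36.98 to 79.9 in Red, median 56.9. Green was tight, on 13 to 30 reads per library, and Red wide, and the groups did not overlap. Its log2 difference was -1.38 ± 0.21 (SE; 95% interval -1.84 to -0.92, n = 6 and 6, limma adjusted p = 0.00031). All 6 batches had Green below Red, from -2.22 to -0.64, and relative to the pan-neuronal genes it was at -1.11 (limma adjusted p = 0.00091).

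Of 9 cholinergic motor neuron genes 8 entered the fit, 4 were called lower in Green and none higher, with a median of -0.49. The TGF-beta ligand gene unc-129 averaged 221 ± 37.7 normalized counts across the Green libraries and 990 ± 402 across the Red (SD, n = 6 each), fell by 2.07 and did not overlap between groups. The acetylcholine receptor subunit genes acr-5 and acr-12 fell, to differences of -1.03 and -0.93, and the choline transporter gene cho-1 fell by 0.41. The acetylcholine synthesis and loading genes of the cholinergic locus, cha-1 and unc-17, were not called, at 0.16 and -0.25. Against the pan-neuronal genes 3 of the 8 were called lower and 1 higher.

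The gene unc-30 (chromosome IV, 13118977 to 13124406, plus strand) ranged from 9.99 to 38.7 normalized counts in Green, median 13.96, and from 21.8 to 47.4 in Red, median 37.3. The groups overlapped, with the Green libraries of batches 1 and 4 within the Red range. Its log2 difference was -0.91 ± 0.32 (SE; 95% interval -1.59 to -0.24, limma adjusted p = 0.033). In batches 1 and 4 the difference was -0.03 and 0.04, and in the other 4 it was -1.05 or lower. The call was lost without any of 7 single libraries (Green 2, 3, 5 or 6, Red 1, 2 or 5), with adjusted p of 0.060 to 0.078. Against the pan-neuronal genes it was not called (-0.64, limma adjusted p = 0.085).

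Of 6 GABA neuron genes 5 entered the fit and 3 were called lower in Green, with a median of -0.43. These were the GABA transporter gene snf-11, which fell by 0.71, and the neuropeptide genes flp-11 and flp-13, at -0.43 and -0.37. The vesicular transporter gene unc-47 was at -0.75 (limma adjusted p = 0.12), and the synthesis gene unc-25, a direct UNC-30 target, was at 0.05, neither called. Since unc-47 averaged 9.70 normalized counts in Green and 16.5 in Red, it passed the filter only through Red. The median of the GABA neuron genes includes it. None of the 5 was called by limma relative to the pan-neuronal genes (1 at an unadjusted p under 0.05, unc-25, at 0.33).

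Interneuron identity is set by unc-42 and ttx-3 among others. UNC-42, a paired-type homeodomain protein, acts in the command interneurons of locomotion and switches on their glutamate receptors. TTX-3, a LIM homeodomain protein, specifies the AIY interneuron together with the homeodomain protein CEH-10. The gene unc-42 (chromosome V, 9764534 to 9769391, minus strand) ranged from 2.51 to 28.3 normalized counts in Green, median 17.1, and from 20.3 to 66.0 in Red, median 36.9.

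In both groups unc-42 split by batch, in opposite ways. In batches 1, 3 and 5 the Green libraries held 28.2, 23.3 and 28.3 normalized counts and the Red libraries 20.96, 21.8 and 20.3, so that Green was slightly the higher in all 3. In batches 2, 4 and 6 the Green libraries held 2.51, 8.52 and 10.9 and the Red libraries 57.5, 52.0 and 66.0, so that Red was far the higher in all 3. The lowest Green value rested on 2 reads, for which the exact 95% Poisson interval is 0.303 to 9.05 normalized counts, counting error only.

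The pooled log2 difference of unc-42 was -1.34 ± 0.51 (SE; 95% interval -2.44 to -0.25, limma adjusted p = 0.04996), just inside the threshold. Within batches it was 0.41, 0.09 and 0.46 in batches 1, 3 and 5, and -4.06, -2.48 and -2.50 in batches 2, 4 and 6. With the batch as a block it was not called (limma adjusted p = 0.084). Nor was it called when any library of batch 2, 4 or 6 was left out (adjusted p 0.073 to 0.11; without Green 2 the difference was -0.94). Relative to the pan-neuronal genes it was at -1.07 (limma adjusted p = 0.078). The labels give the batches only as numbers, and the source of the split was not tested.

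**Figure D2:**
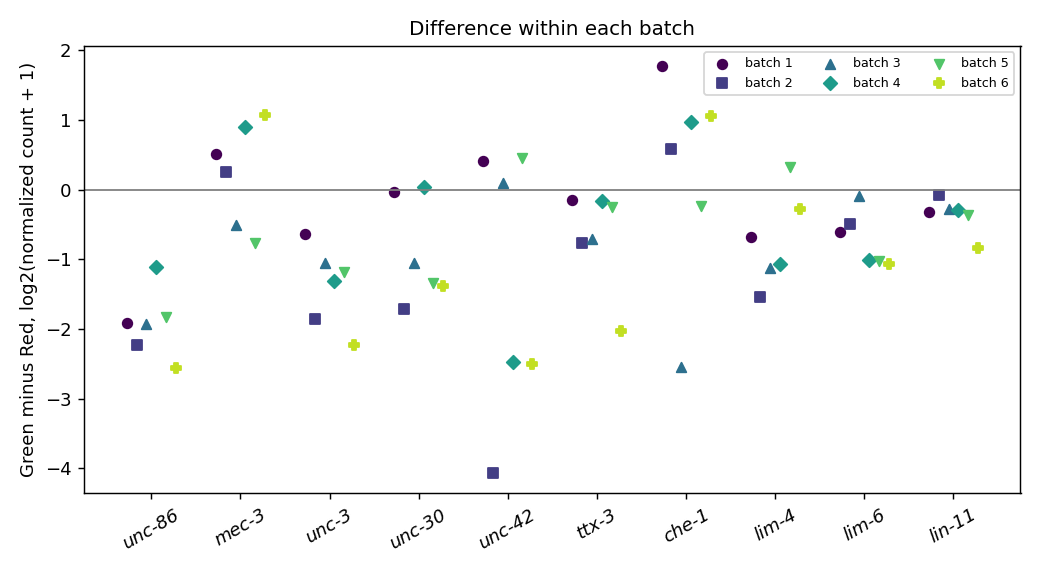
The y axis gives the log2 difference Green minus Red of log2(normalized count + 1) within each of the 6 batches, for the 10 terminal selector genes on the x axis, with 1 marker per batch. The markers of unc-86 and unc-3 all lie below 0, those of unc-42 fall into 2 sets of 3, and those of che-1 scatter from -2.54 to 1.77.

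All 6 listed glutamate receptor genes of the command interneurons entered the fit, 4 were called lower in Green and none higher, with a median of -0.65. The NMDA-type subunit gene nmr-1 averaged 25.5 ± 4.81 normalized counts across the Green libraries and 54.7 ± 13.7 across the Red (SD, n = 6 each), fell by 1.05 and did not overlap between groups. The AMPA-type and kainate-type genes glr-1, glr-4 and glr-5 fell, with differences of -0.75, -0.64 and -0.51. Of these, nmr-1 alone was called relative to the pan-neuronal genes.

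The gene ttx-3 (chromosome X, 11764456 to 11769378, minus strand) lay under the filter, with 2 to 19 reads per library. It ranged from 1.09 to 14.6 normalized counts in Green, median 3.54, and from 3.70 to 16.5 in Red, median 7.30. The groups overlapped widely, and the library of batch 4 was the highest in both. The log2 difference was -0.68 (exact two-sided permutation p = 0.18), and all 6 batches had Green below Red, from -2.03 to -0.15. Sign flips within batches gave an exact p of 0.031, the smallest that 6 batches allow. Without Green 4 the difference was -0.99 (exact permutation p = 0.030), and without Green 6, which held 2 reads, it was -0.41 (exact permutation p = 0.34). An exon of the lactamase-domain gene lact-7 on the other strand overlaps an exon of ttx-3; lact-7 was at 0.27 and not called (limma adjusted p = 0.29).

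Of 7 AIY interneuron genes 6 entered the fit, 4 were called lower in Green and none higher, with a median of -0.78. The gene ceh-10, which encodes the partner of TTX-3, averaged 24.6 ± 5.87 normalized counts across the Green libraries and 122 ± 45.6 across the Red (SD, n = 6 each), fell by 2.20 and did not overlap between groups. The anosmin gene kal-1, the serotonin-gated channel gene mod-1 and the homeobox gene ceh-23 fell too, at -0.82, -0.74 and -0.90. These 4 were also called relative to the pan-neuronal genes.

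Sensory neuron identity was represented by che-1 and lim-4. CHE-1, a zinc finger protein, specifies the ASE taste neurons, and LIM-4, a LIM homeodomain protein, acts in the AWB olfactory neurons and in head motor neurons. The gene che-1 (chromosome I, 6517529 to 6520918, minus strand) held 0 to 5 reads in any library, 15 in all Green and 12 in all Red libraries. It ranged from 0 to 6.08 normalized counts in Green and from 0 to 4.84 in Red. The log2 difference was 0.27 (exact two-sided permutation p = 0.67), and no difference was detectable at this depth.

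Of 13 ASE genes 7 entered the fit, 4 were called lower in Green and none higher, with a median of -0.63. The receptor guanylate cyclase gene gcy-22 averaged 58.6 ± 14.98 normalized counts across the Green libraries and 153 ± 43.5 across the Red (SD, n = 6 each), fell by 1.35 and did not overlap between groups. The cyclic nucleotide-gated channel genes tax-2 and tax-4, which serve several sensory neurons, were called at -1.16 and -1.11, and the neuropeptide gene flp-20 fell by 0.63. Since tax-2 averaged 7.84 normalized counts in Green and 17.4 in Red, it passed the filter only through Red. Its call is no support, and the count of 4 and the median include it. Relative to the pan-neuronal genes gcy-22, tax-4 and flp-20 were called too, and tax-2 with the same limit.

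The gene lim-4 (chromosome X, 3869404 to 3873545, minus strand) lay just under the filter at a mean of 9.63 normalized counts over the 12 libraries. It ranged from 4.99 to 8.86 normalized counts in Green, median 6.66, and from 5.46 to 20.2 in Red, median 12.98. Green was tight, and the Red libraries of batches 5 and 6 lay within its range. The log2 difference was -0.73 (exact two-sided permutation p = 0.026, not adjusted, 1 of 3 such tests), with Green below Red in 5 of 6 batches. Sign flips within batches gave an exact p of 0.094, and a fit of all genes without the filter gave a limma adjusted p of 0.089.

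The LIM homeodomain genes lim-6 and lin-11 had the highest levels of the 10 in Green. LIM-6, of the LMX1 type, acts in a few GABA neurons and in the left ASE neuron, and LIN-11 acts in interneurons and motor neurons and also in the vulva. The gene lim-6 (chromosome X, 1072452 to 1079452, plus strand) ranged from 74.2 to 118 normalized counts in Green, median 93.1, and from 102 to 192 in Red, median 163. The Red library of batch 3 lay within the Green range and the other 5 above it. The log2 difference was -0.72 ± 0.17 (SE; 95% interval -1.08 to -0.36, limma adjusted p = 0.0049), with Green below Red in all 6 batches.

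Relative to the pan-neuronal genes lim-6 was at -0.44 (limma adjusted p = 0.028), a call that was lost without any of 4 single libraries (Green 4 or 5, Red 2 or 5), with adjusted p of 0.055 to 0.069. An exon of the profilin gene pfn-3 on the other strand overlaps an exon of lim-6, and whether counting used strand is not given. That gene was not called, at -0.01 (limma adjusted p = 0.96).

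The gene lin-11 (chromosome I, 10248288 to 10255327, plus strand) ranged from 59.9 to 103.9 normalized counts in Green, median 85.0, and from 72.5 to 150 in Red, median 112. The groups overlapped, with Green lower in each of the 6 batches by -0.83 to -0.07. The log2 difference was -0.36 ± 0.19 (SE; 95% interval -0.77 to 0.05, limma adjusted p = 0.15). It was called without Red 3 (limma adjusted p = 0.048). Against the pan-neuronal genes it was at -0.09. Of 4 vulval genes 3 entered the fit and none was called by limma or edgeR (1 at an unadjusted p under 0.05), with a median of -0.64; the metalloprotease gene zmp-1 was at -0.64 (adjusted p = 0.077), ceh-2 at -0.78 and the cadherin gene cdh-3 at -0.05. With the batch as a block, or without Red 6, zmp-1 was called lower (limma adjusted p = 0.023 and 0.046). Since ceh-2 averaged 9.09 normalized counts in Green and 14.5 in Red, it passed the filter only through Red. The median of the vulval genes includes it.

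**Figure D3:**
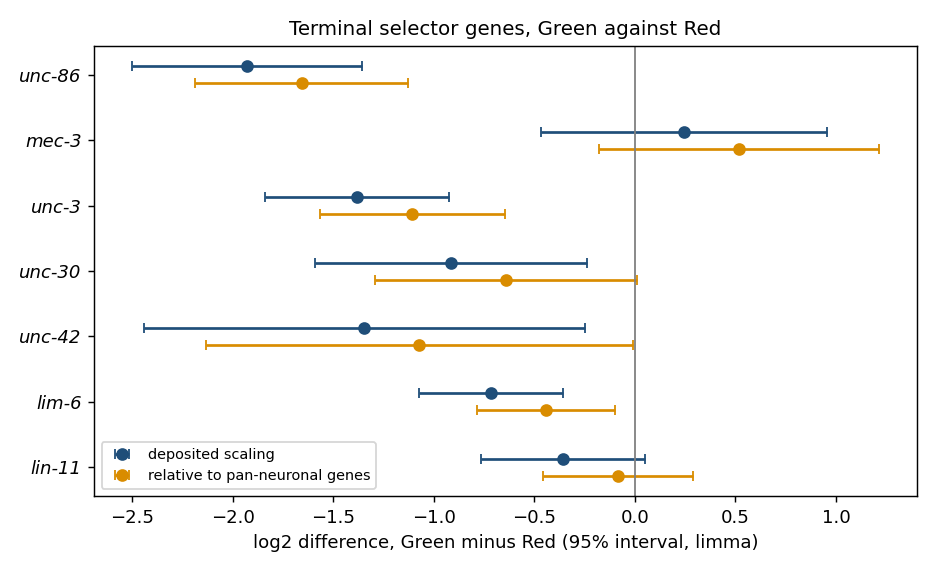
The x axis gives the log2 difference Green minus Red with its 95% limma interval for the 7 terminal selector genes that entered the fit, n = 6 libraries per group. Blue points use the deposited scaling and orange points are relative to the mean of 26 pan-neuronal genes; the intervals of unc-86, unc-3, lim-6 and, narrowly, unc-42 lie below 0 on both scales (the adjusted p of unc-42 on the second is 0.078), and those of mec-3 and lin-11 span 0 on both.

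The order of levels was read per kilobase of exon. In Green it ran from lin-11 (55.9 normalized counts per kilobase) and lim-6 (44.6) through unc-86 (23.1), mec-3 (14.7), unc-42 (14.6), unc-30 (13.9) and unc-3 (10.3) to lim-4 (4.03), ttx-3 (3.82) and che-1 (2.90). In Red unc-86 led at 88.6 normalized counts per kilobase, followed by lim-6 (74.0), lin-11 (72.7), unc-42 (34.3), unc-3 (28.03), unc-30 (25.2), mec-3 (12.3), lim-4 (7.52), ttx-3 (5.71) and che-1 (2.21). Neighbours in either order overlapped in their ranges over the 6 libraries, except unc-3 and lim-4 in Green. Between the orders unc-86 went from the third place to the first, and mec-3 from the fourth to the seventh.

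Other factors known to set neuronal identity formed a longer list, and most of those in the fit were called lower in Green. Of 28 listed, 23 entered the fit, 15 were called lower and none higher, with a median log2 difference of -0.75; relative to the pan-neuronal genes 11 were called lower. The homeobox genes ceh-43 and mls-2 were called at -2.19 and -2.39, the zinc finger gene egl-43 fell by 1.13 and the nuclear receptor gene nhr-67 fell by 1.81. Several of these also act in embryonic precursors, glia or epidermis. Of the 23, fax-1 averaged 7.76 normalized counts in Green and 16.0 in Red and passed the filter only through Red. It was not called, and the median of the list includes it. Of 4 further LIM homeodomain and POU genes 1 was called, lim-7, which fell by 0.88; ceh-14, which is also among the 23, was at -0.25, and the POU genes ceh-18 and ceh-6 at -0.12 and -0.10.

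Cofactors that homeodomain proteins share were read as a further list. Of 5 listed 3 were called lower in Green: ceh-20, a Pbx-type partner, fell by 0.87, ldb-1, the LIM domain-binding adaptor, fell by 0.75, and unc-62, a Meis-type partner, fell by 0.56. The corepressor gene unc-37, at -0.13, and the Pbx-type gene ceh-60, at -0.15, were not called. By edgeR (adjusted p = 0.021), and by limma after quantile normalization, unc-37 was called lower. Against the pan-neuronal genes 2 of the 5 were called lower.

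Proneural genes, whose basic helix-loop-helix proteins act before terminal selectors, in neuronal precursors, were read in the same way. Of 9 listed, 7 entered the fit, 6 were called lower in Green and none higher, with a median of -1.36. Both lin-32 and cnd-1 averaged under 10 normalized counts in Green and passed the filter only through Red, where they are high. Their calls are no support, and the count of 6 and the median include them. The genes ngn-1, hlh-4 and hlh-14, which averaged over 10 in both groups, were called at -1.40, -1.16 and -1.36. The atonal-type gene lin-32 averaged 9.45 ± 5.98 normalized counts across the Green libraries and 63.3 ± 24.2 across the Red (SD, n = 6 each). It fell by 2.71 and did not overlap between groups.

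**Figure D4:**
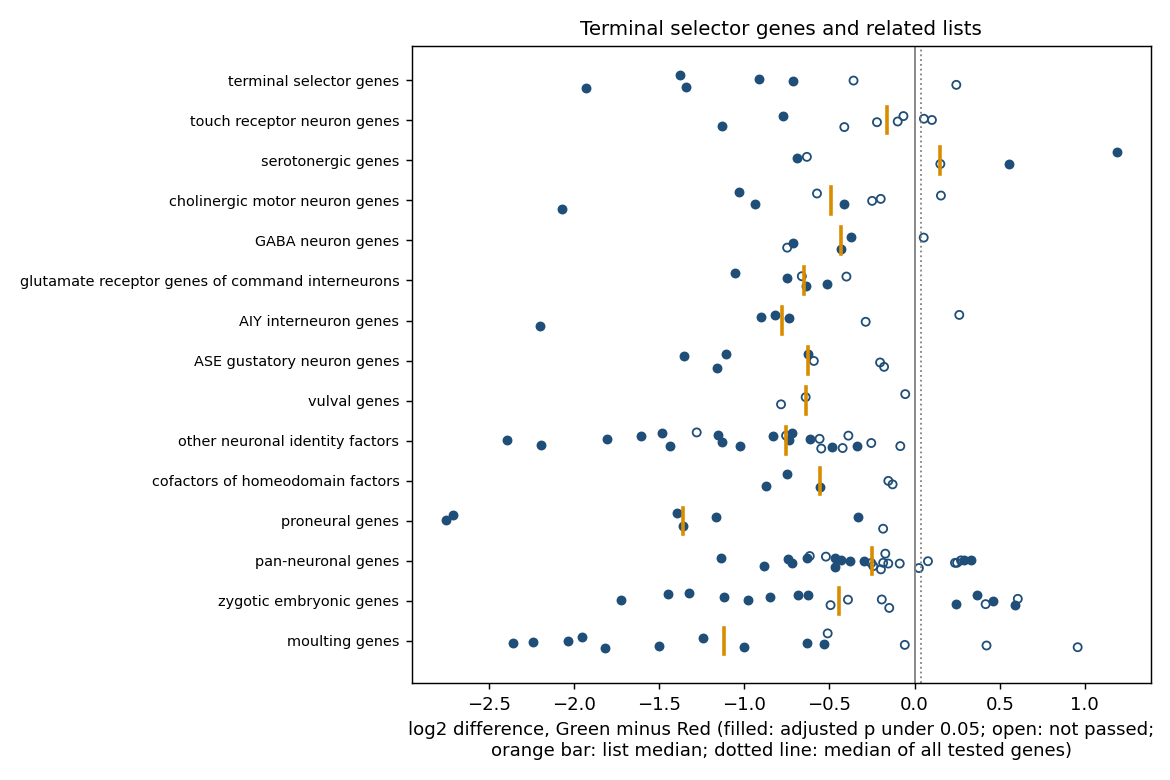
The x axis gives the log2 difference Green minus Red and each row is a gene list, with 1 point per gene in the fit (filled where the limma adjusted p is under 0.05, open where it is not). Orange bars are list medians and the dotted line the median of all tested genes (0.04). The leftmost points are those of the proneural genes cnd-1 and lin-32 (-2.75 and -2.71), which passed the filter only through Red. The serotonergic row lies on both sides of 0. Not drawn are the oocyte (median 0.58), body-wall muscle (0.82), intestine (-0.13), pharynx (-0.41) and other LIM homeodomain and POU lists (-0.18).

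The pan-neuronal genes themselves were divided. Of 26, 10 were called lower in Green and 2 higher, with a median of -0.25. The calcium channel gene unc-2 was at -1.14, the dense-core vesicle gene ida-1 at -0.72, the active zone gene unc-10 at -0.74 and the syntaxin gene unc-64 at -0.63, all called. The 2 called higher were maco-1 and ehs-1, at 0.33 and 0.29. The mean log2 level of the 26 ran from 9.45 to 9.59 in the Green libraries and from 9.69 to 9.96 in the Red, without overlap. The summed counts of the 26 overlapped, 58996 to 63283 in Green and 58393 to 62278 in Red. Genes with high counts weigh most in these sums, and the highest, maco-1, averaged 12791 in Green and 10222 in Red.

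Adult worms carry embryos, and larvae among them would moult, so markers of those stages were read beside the factors. Moulting genes were lower in Green in 10 of 14 with none higher, with a median of -1.12 and summed levels of 3649 to 6402 normalized counts in Green against 7411 to 18509 in Red, without overlap; wrt-10, fbn-1, noah-1 and noah-2 were called at -2.24, -2.36, -1.95 and -1.82. Of 18 zygotic embryonic genes in the fit 8 were called lower and 4 higher, with a median of -0.44, and their summed levels overlapped, 17014 to 19340 against 15070 to 18987. Among them nhr-25, tbx-8, tbx-37 and pha-4 were called at -1.72, -1.45, -0.98 and -0.85. The 4 called higher were ref-1, pes-1, pal-1 and lin-26, at 0.59, 0.46, 0.37 and 0.25. Of the 18, pal-1 and lin-26 had the highest counts, averaging 6791 and 6792 in Green and 5282 and 5758 in Red. They weigh most in the summed levels, so the overlap of the sums says little about the other genes. Oocyte genes were called higher in Green in 12 of 14, with a median of 0.58. Their sums, 1018370 to 1267910 in Green, overlapped only with that of Red 6 (1157520), the other Red libraries reaching at most 901676, and without Red 6 all 14 were called higher. None of the listed markers was at 0 in all libraries. The part of these stages in the differences of the terminal selector genes was not tested.

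Likeness to other genes was measured as the root-mean-square difference of log2 levels over the 12 libraries, each gene centred on its own mean. The gene nearest to unc-86 was pros-1, a Prospero-type homeobox gene, at 0.19, followed by F13E9.11 at 0.28. Nearest to unc-3 were the stomatin gene sto-1 and srap-1, both at 0.21. Nearest to mec-3 were K08D8.3 (0.28) and Y4C6B.3 (0.29), to unc-30 Y52B11A.4 and dao-2 (both 0.31), to lim-6 C32D5.7 (0.13) and D2045.7 (0.16), and to lin-11 T27A10.6 (0.14) and T28D6.5 (0.15).

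Among the factors themselves the closest pair, lim-6 and lin-11, differed by 0.33, and the partners unc-86 and mec-3 differed by 1.21. The factor most like unc-86 was unc-3, at 0.55, with 393 tested genes nearer to unc-86. No gene came close to unc-42; the nearest were the Hox gene mab-5 at 0.60 and the dual oxidase gene duox-2 at 0.68, and unc-3 lay at 0.76, with 24 tested genes nearer to unc-42. In Green mab-5 held 50.8, 51.6 and 64.8 normalized counts in batches 1, 3 and 5 and 23.8, 25.6 and 23.9 in batches 2, 4 and 6. In Red it held 70.3, 66.5 and 100.6 in batches 1, 3 and 5 and 116, 95.3 and 110 in batches 2, 4 and 6. Unlike unc-42, it was lower in Green in every batch.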

How the data were processed

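The authors deposited a normalized signal per gene for whole worms, per the file headers, in which each library's read counts are divided by 1 size factor. The labels' protocols name a Qiagen miRNeasy extraction and a stranded Kapa mRNA library kit. The submitters' processing notes name FastQC 0.11.8, STAR, MultiQC, Salmon 0.14.2, DESeq2 and build WBcel235; no settings are given. In each library 100% of values came out as whole reads within 0.001, and totals ran from 30185155 to 87141961 reads. For Red 2 the factor is close to 1, so that check is less decisive there.

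Green and Red were compared with limma 3.58.1 (R 4.3.3, moderated variances with a trend) on log2(normalized count + 1), over 14618 genes with a mean of at least 10, with Benjamini-Hochberg adjustment over all of them. Adding 1 shrinks the folds of low genes. The 3 factors under that mean got exact permutation tests over 924 assignments and sign flips over 64 patterns within batches. The fit was tested on simulated data. edgeR 4.0.16 and DESeq2 1.42.0 on the recovered reads, other scalings and filters, and leaving out each library were alternatives. Batch numbers are given by the labels and pair 1 Green with 1 Red library; within a batch the 2 libraries' deviations from their group means correlated by 0.11 to 0.37 across genes.

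The 10 factors, the 19 lists (200 genes, 1 not matched by its symbol) and the tests were chosen with earlier results of these data known. Named from each list were up to 4 genes with the smallest p, and for each factor the 2 most similar genes. Others were added after their values were seen: cha-1, unc-17, unc-25, mec-7, mec-9, mec-12, mec-17, maco-1, ehs-1, ref-1, pes-1, pal-1 and lin-26, and the overlapping genes pfn-3 and lact-7. Positions came from an Ensembl annotation of WBcel235, in which 21896 of 21982 identifiers were found. Exons of unc-42 and che-1 also overlap non-coding genes on the other strand, not analysed here.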

Additional observations from a re-analysis of the deposited data

How the results depend on the processing

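The calls of unc-86 and unc-3 held under every alternative run in which they were tested. Of the terminal selector genes 5 were called; the count was 3 to 6 when 1 library was left out (3 without Green 2, Green 6 or Red 2, 6 without Red 3), 3 without batch 6, 2 after quantile normalization and 2 with a mean of at least 50, which only 3 genes pass. With batch as a replicate block 4 were called, and also when batch 6 was left out of that fit, an alternative chosen after seeing the data; the block changed no other call of a factor in the limma fit than that of unc-42. Relative to the pan-neuronal genes 3 were called lower, and 2 to 5 when 1 library was left out (5 without Green 1). There mec-3 passed as higher after quantile normalization (0.96, adjusted p = 0.018), and lin-11 turned to 0.14 after quantile normalization and to 0.017 without batch 6, and ran from -0.17 to 0.012 when 1 library was left out (0.012 without Red 6). Of the factors under the filter 1 passed its exact test, and 1 to 2 when 1 library was left out (2 without Green 4). Quantile normalization also ended the calls of unc-30 (-0.49, adjusted p = 0.22), unc-42 (-0.92, adjusted p = 0.20) and lim-6 (-0.47, adjusted p = 0.051). Over all genes 5719 were called (2781 higher, 2938 lower), 6701 with the block, 5609 by edgeR, 6010 by DESeq2, and 4451 (without Red 2) to 8009 (without Red 6) when 1 library was left out. Median centring raised every difference by 0.13 and gave 4163 higher and 2337 lower; unc-42 was then not called (adjusted p = 0.062). Quantile normalization, added for the lists after seeing the data, called fewer list genes lower: 2 cholinergic, 0 GABA, 2 glutamate receptor, 2 AIY and 1 ASE gene, but 13 other identity factors and 6 proneural genes. Among these 6 were lin-32 and cnd-1, which passed the filter only through Red. The causes were not tested. Counts of 0 to 20 reads limit ttx-3, che-1 and lim-4.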

Other observations

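Tissue markers outside the nervous system moved in different directions. Body-wall muscle markers were called higher in Green in 4 of 6 and lower in none, with a median log2 difference of 0.82; the troponin genes unc-27 and tnt-2 both rose by 1.59, paramyosin unc-15 rose by 0.95 and the myosin gene myo-3 rose by 0.69. Pharynx markers were called lower in 3 of the 5 in the fit, with a median of -0.41; the myosin genes myo-5 and myo-2 fell by 0.43 and 0.35 and the troponin gene tnc-2 fell by 0.41. Relative to the pan-neuronal genes none of these 5 was called by limma (0 at an unadjusted p under 0.05). Of 6 intestine markers 1 was called higher and 1 lower: the esterase gene ges-1 rose by 1.30 and the actin gene act-5 fell by 0.60.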
